A study of Mus musculus with 75 samples.

Results

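Chromatin accessibility was compared between passage 5 (P5) and passage 3 (P3) of serially cultured mouse skin fibroblasts, using every region that the authors' peak caller listed in the 3 P5 and the 3 P3 ATAC-seq samples. Rows of a sample that shared the same start and end, which are several summits of the same stretch, were first joined into 1 region. Regions of the 6 samples that overlapped were then merged into a catalogue of 247228 regions, out of 306858 regions when all 13 ATAC-seq samples of passages 1, 3, 5 and 7 were merged in the same way. No region was chosen for its strength or for its change, and each catalogue region was described by its presence in each sample, its width and its rank within the sample.

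The cells were untreated skin fibroblasts of 2-month-old female C57BL/6 mice, with no genetic change in either group, and P3 and P5 differed in the number of times the culture had been split and in the time spent in culture. RNA-seq libraries of the same passages, 4 at P3 and 4 at P5, were used for the genes near changed regions. They were separate samples from the ATAC-seq ones. The labels did not say whether replicates came from separate mice or from separate dishes, so the p-values below measure only the spread between these samples, which may be technical.

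ATAC-seq uses the Tn5 transposase to cut and tag DNA that is not wrapped in nucleosomes, so that its peaks mark promoters, enhancers and other sites held open by DNA-binding proteins. Promoters of active genes tend to be open in many cell types, whereas distal sites are more specific to cell type and state. Cultured fibroblasts divide less often with passage until they enter replicative senescence, in which p16 and p19, the products of Cdkn2a, and p21, the product of Cdkn1a, block the cell cycle and genes driven by E2F factors are silenced. In fibroblasts, distal open sites often carry AP-1, TEAD and RUNX motifs, and E-boxes, the CANNTG sites read by basic helix-loop-helix factors such as TWIST1 and TCF4.

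The sequences below are some of those at the summits of the regions that changed most. Each is the 201 bases around a summit on the plus strand of GRCm38 (the build also called mm10), taken from the RefSeq copy of that assembly. The first 3 were listed in 3 of 3 P5 samples and in no P3 sample. Capitals mark matches, on either strand, to the E-box forms CAGATG or CATATG, AP-1 (TGACTCA), TEAD (GGAATG), RUNX (TGTGGTT) or SP/KLF (GGGCGG).
Gained, intron of Prkg1, chr19:31471806-31472006: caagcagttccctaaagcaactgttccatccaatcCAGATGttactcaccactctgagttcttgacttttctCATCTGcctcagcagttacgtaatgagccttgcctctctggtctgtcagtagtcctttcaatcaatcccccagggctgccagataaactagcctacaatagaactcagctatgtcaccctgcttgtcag
Gained, intron of Ipo8, chr6:148811219-148811419: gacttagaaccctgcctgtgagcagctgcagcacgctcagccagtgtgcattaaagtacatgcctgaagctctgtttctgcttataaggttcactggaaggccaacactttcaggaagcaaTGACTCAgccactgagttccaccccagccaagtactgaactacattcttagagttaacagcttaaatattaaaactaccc
Gained, intron of Setmar, chr6:108068582-108068782: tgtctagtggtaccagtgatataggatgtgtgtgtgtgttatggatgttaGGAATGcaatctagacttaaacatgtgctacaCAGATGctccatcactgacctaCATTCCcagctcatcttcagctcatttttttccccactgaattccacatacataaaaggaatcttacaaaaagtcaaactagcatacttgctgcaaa
Lost, beside Mir5099, chr12:36816345-36816545: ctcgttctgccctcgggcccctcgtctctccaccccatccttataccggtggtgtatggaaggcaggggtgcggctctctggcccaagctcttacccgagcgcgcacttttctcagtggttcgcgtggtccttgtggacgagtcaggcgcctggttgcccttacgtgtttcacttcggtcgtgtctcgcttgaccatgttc
Higher rank, intron of Mmp3, chr9:7453360-7453560: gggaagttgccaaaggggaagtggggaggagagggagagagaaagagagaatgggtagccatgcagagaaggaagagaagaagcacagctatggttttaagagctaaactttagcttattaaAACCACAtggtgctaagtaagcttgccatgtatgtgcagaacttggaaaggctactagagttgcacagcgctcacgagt
Higher rank, intron of 2900026A02Rik, chr5:113142613-113142813: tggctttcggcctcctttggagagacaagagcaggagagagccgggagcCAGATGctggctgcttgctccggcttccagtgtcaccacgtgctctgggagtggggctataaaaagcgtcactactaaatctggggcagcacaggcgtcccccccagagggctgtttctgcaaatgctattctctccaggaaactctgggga
Lower rank, upstream of Sp3, chr2:73012705-73012905: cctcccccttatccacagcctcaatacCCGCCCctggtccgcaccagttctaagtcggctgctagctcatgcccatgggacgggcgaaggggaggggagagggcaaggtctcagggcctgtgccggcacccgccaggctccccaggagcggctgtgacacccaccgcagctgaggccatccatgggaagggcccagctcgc
In the next sequence the capitals mark something else, the bases that lie in stretches of at least 31 bases identical to the mitochondrial genome.
Lower rank, intron of Myo3a, chr2:22587456-22587656: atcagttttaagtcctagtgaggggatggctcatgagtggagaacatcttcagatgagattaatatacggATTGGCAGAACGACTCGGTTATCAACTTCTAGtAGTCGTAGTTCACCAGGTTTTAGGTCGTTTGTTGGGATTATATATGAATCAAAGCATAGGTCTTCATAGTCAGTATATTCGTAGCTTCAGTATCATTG
The Prkg1 and Setmar regions carried E-box matches, the Ipo8 region an AP-1 match, and the Setmar region a pair of TEAD matches beside its E-box. Among the strongest gained regions not shown, chr9:84185943-84186407 and chr3:101926667-101927304 each carried an E-box match. The region in an exon of Orai3, chr14:13770682-13771145 and chr1:144367438-144367915 carried none of the marked motifs. A match is a description of the letters and does not show that a factor was bound.

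More regions were listed at P5 than at P3. The P3 samples held 155681, 142384 and 155266 regions and the P5 samples 198942, 207965 and 182402. Every P5 sample exceeded every P3 sample. The means were 151110 ± 7560 (SD, n = 3) at P3 and 196436 ± 12964 (SD, n = 3) at P5, a ratio of 1.30. An exact permutation test of 3 against 3 samples (two-sided) gave p = 0.1, which is the smallest value this design allows, so no comparison of this kind could pass 0.05.

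The added regions were mostly distal, that is, over 1 kb from any annotated transcription start site (TSS). Promoter regions, those within 1 kb of a TSS, numbered 19980, 18296 and 19180 at P3 and 20806, 20384 and 20264 at P5, a ratio of 1.07. Distal regions averaged 131958 at P3 and 175952 at P5, a ratio of 1.33. The share of promoter regions accordingly went from 12.7% to 10.5% of the list, with no overlap between the passages (exact permutation p = 0.1).

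The listed regions covered 76.4, 83.7 and 80.1 Mb at P3 and 93.1, 104.1 and 84.1 Mb at P5. The ratio of the means was 1.17, smaller than the ratio of region numbers, and the third P5 sample lay only just above the second P3 sample. That P3 sample, replicate 2, stood apart from the other P3 samples: its list was the shortest, its median region was 482 bases wide against 375 and 393, and 31.8% of its regions held several summits against 22.5% and 25.1%. On the second principal component of the ranks, which carried 21.3% of the variance, it lay opposite to P3 replicates 1 and 3, while the first component, with 37.0%, separated P3 from P5.

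The strength of the listed regions differed less clearly. The median −log10 p of a region, a measure of how far its signal exceeded the local background in the authors' peak calling, was 16.2, 12 and 17 at P3 and 24.3, 24.2 and 16.8 at P5, so that P5 replicate 3 lay within the P3 range (exact permutation p = 0.2). Read depth was not given in the files used here, and both the number of listed regions and their −log10 p rise with depth. What part depth had in the longer P5 lists was not tested.

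**Figure D1:**
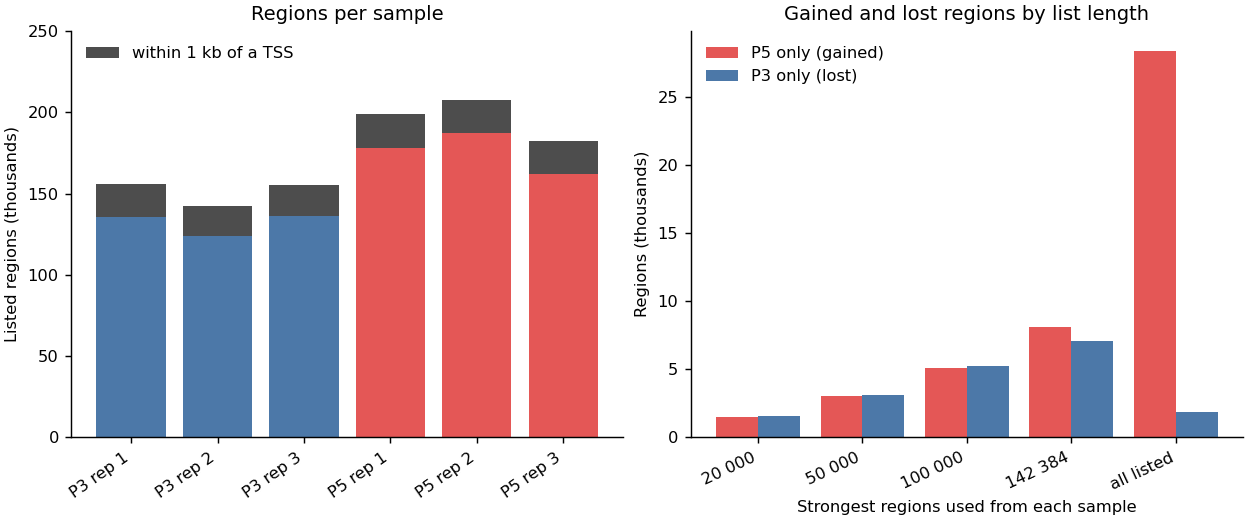
Left, listed regions of each sample on an axis in units of 1000 (blue P3, red P5, dark grey the part within 1 kb of a TSS); right, regions gained at P5 (red) and lost (blue), on an axis in the same units, when only the strongest regions of each sample were used. The P5 lists were longer in every sample, and the gained and lost numbers were close at equal list lengths up to 142384, which hold them close by construction, and far apart, 28381 against 1848, with the full lists.

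A region was called gained when at least 2 of 3 P5 samples and no P3 sample listed it, and lost in the opposite case. There were 28381 gained regions, which is 11.5% of the catalogue, and 1848 lost regions, which is 0.747%. Of the gained regions 11043 were in 3 of 3 P5 samples, whereas 284 of the lost regions were in 3 of 3 P3 samples. All 6 samples shared 105900 regions, and 36415 regions were in a single P5 sample and nowhere else.

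Gained and lost regions were also counted with lists of equal length, in which a region can enter only if another leaves, so that the numbers are held close to each other by construction. When each sample contributed its 142384 strongest regions, the length of the shortest list, 8106 regions were gained and 7041 lost, a ratio of 1.15. With the strongest 100000 the numbers were 5093 and 5221, with 50000 they were 3032 and 3138, and with 20000 they were 1522 and 1536. These numbers show how many of the strongest regions changed places and do not tell whether more chromatin was open at P5.

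The lost regions of the equal lists were mainly regions that had slipped below the length limit, not ones absent from P5. Of the 7041, 83.9% were listed in at least 1 P5 sample when full lists were used. Of the 8106 gained regions, 12.1% were listed in at least 1 P3 sample's full list. The P3 lists were cut less or not at all, since the limit was the full length of P3 replicate 2. Among the strongest 20000, all 1522 gained regions and 1535 of the 1536 lost regions were listed in every sample of the other passage too.

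**Figure D2:**
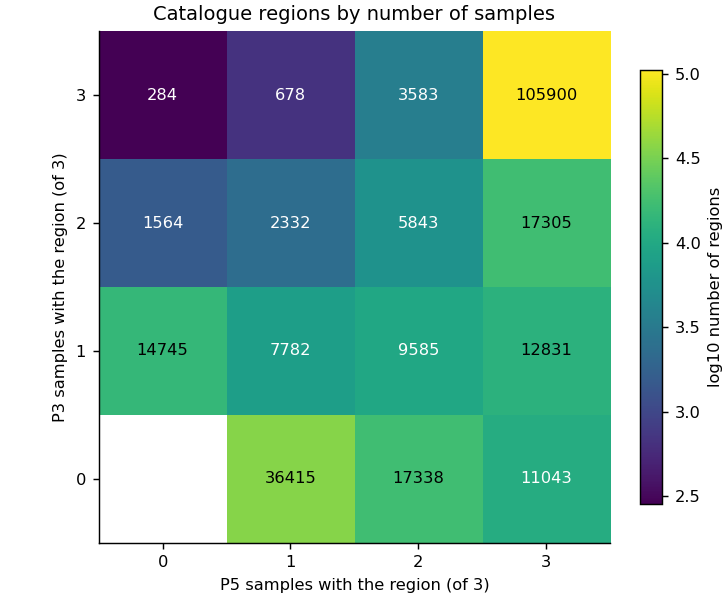
Number of catalogue regions by how many of the 3 P5 samples (x) and of the 3 P3 samples (y) listed them, with colour on a log10 scale. The largest cell is the 105900 regions of all 6 samples, and the bottom row, regions in no P3 sample, holds 36415, 17338 and 11043 regions against 14745, 1564 and 284 in the left column, regions in no P5 sample.

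Against shared regions, gained regions were weak, narrow and far from genes. For strength and width this follows in part from the definition, since shared regions had to be listed in all 6 samples. Their median width was 313 bases, against 755 for shared regions, and the best percentile they reached in any sample had a median of 29.4 on a scale where 100 is the strongest region of the sample. None exceeded percentile 90, and 2522 exceeded 50. The median distance to the nearest TSS of a protein-coding gene was 54.8 kb, against 29.9 kb for shared regions and 26.6 kb for lost regions. Only 2.04% of gained regions were promoter regions, against 10.98% of lost, 14.7% of shared and 8.51% of all catalogue regions. Regions neither gained, lost nor shared had a median width of 301 bases and a median best percentile of 23.6, both below the gained values. Their median distance was 38.8 kb, and 4.23% were promoter regions.

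Lost regions were as narrow as gained ones, with a median width of 317 bases, and weaker, with a median best percentile of 20.01, but 19 of them exceeded percentile 90. Repeats covered on average 21.7% of a lost region's 201 bases, 14.5% of a gained region's and 10.8% of a shared region's. By chromosome, the gained share of catalogue regions ran from 9.51% on chromosome 19 to 14.1% on the X, leaving aside the Y, where the catalogue held 13 regions.

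How often such a call returned in a sample that had not been used to make it differed between the passages. Regions gained by the other 2 P5 samples were listed in the held-out sample in 69.4% of cases for P5 replicate 1, 83.1% for replicate 2 and 52.1% for replicate 3, which has the shortest P5 list. When a P3 sample was held out instead, 21.6%, 18.6% and 23.1% of the regions gained against the other 2 were listed in P3 replicates 1, 2 and 3, in that order. For lost regions the held-out P3 sample held 36.8%, 35.4% and 46.2%, and a held-out P5 sample held 36.5%, 44.97% and 23.6% of the regions lost against the other 2. These ranges overlap, so lost calls did not return clearly more often in P3 than in P5 samples.

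The single regions chosen by rule as the strongest gained ones had percentiles between 66.4 and 81.2 in the P5 samples. The region chr19:31471719-31472099 lies in an intron of Prkg1, the cGMP-dependent protein kinase of smooth muscle relaxation, and its percentiles were 72.9, 76.2 and 72.2. It was listed in 4 of 4 P1 and 3 of 3 P7 samples, so that of the 13 samples only those of P3 lacked it. Another 4 of the 8 strongest were listed in at least 3 P1 and in all P7 samples, among them chr7:127774052-127774352 in an exon of Orai3, a calcium channel gene, with percentiles of 70.7, 79.8 and 74.1. By contrast, 3 of the 8 strongest gained regions were in no P1 sample and in all 3 P7 samples. Among them were the regions in introns of Ipo8 (chr6:148811147-148811551), which encodes a nuclear import receptor, and Setmar (chr6:108068490-108068879). The Ipo8 region had percentiles of 74.99, 73.3 and 67.5, and the Setmar region 72.8, 71.1 and 67.2.

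Among the 5 strongest lost regions, chr12:36816224-36816701 lies within 1 kb of the start of the microRNA gene Mir5099 and had percentiles of 87.6, 86.7 and 78.8 at P3. A second, chr17:22877907-22878285, lies 10.97 kb from the TSS of the zinc finger gene Zfp945 and had 90.5, 79.5 and 84.2. Both were listed in 4 of 4 P1 samples and in no P7 sample. At its summit neither region carried a stretch of at least 31 bases identical to the ribosomal RNA gene. In the whole catalogue 13 regions carried such a stretch, of which 2 were lost, 2 were shared and none was gained. The rest of the ribosomal DNA unit was not searched. Whether the 2 regions are copies of other sequence repeated in the genome was not tested, and reads of such copies cannot be told apart. The fourth, in an intron of Gm19951 (chr12:99644965-99645277), was back in 3 of 3 P7 samples. Of all lost regions, 134 were in every P1 sample and in no P7 sample.

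Passages 1 and 7, which had no part in the calls, were then used to follow the gained regions. P7 samples listed 65.7%, 70.9% and 66.4% of them, and P1 samples 35.5%, 32.6%, 38.3% and 33.5%. All 3 P7 values lay above all 4 P1 values. For the whole catalogue the P7 samples held 73.2% to 76.8% and the P1 samples 62.1% to 64.3%, so P7 samples also listed more of the whole catalogue, with a smaller gap. Lost regions went the other way, with 38.3% to 45.8% in P1 samples and 23.9% to 34.3% in P7 samples.

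The share rose with the number of P5 samples that had the region. Regions of a single P5 sample were listed in 28.2% to 36.8% in P7 samples, those of 2 in 56.9% to 64.1% and those of 3 in 78.3% to 81.6%. In P1 samples it rose likewise, with 14.4% to 19.8%, 27.0% to 33.4% and 40.9% to 45.9%. In all, 12887 gained regions were listed in every P7 sample, which is 45.4%, against 64.1% of the catalogue. In no P1 sample were 12039 (42.4%, against 24.3% of the catalogue), and 4577 met both conditions (16.1% against 5.63%). Of the 111099 regions that were neither gained, lost nor shared, 41.6% were in no P1 sample, close to the gained share. Every P7 sample listed 37.7% of them, and 7.44% met both conditions. For the gained regions of the equal lists the order was the same, with 83.5% to 88.2% in P7 samples and 47.8% to 52.0% in P1 samples.

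**Figure D3:**
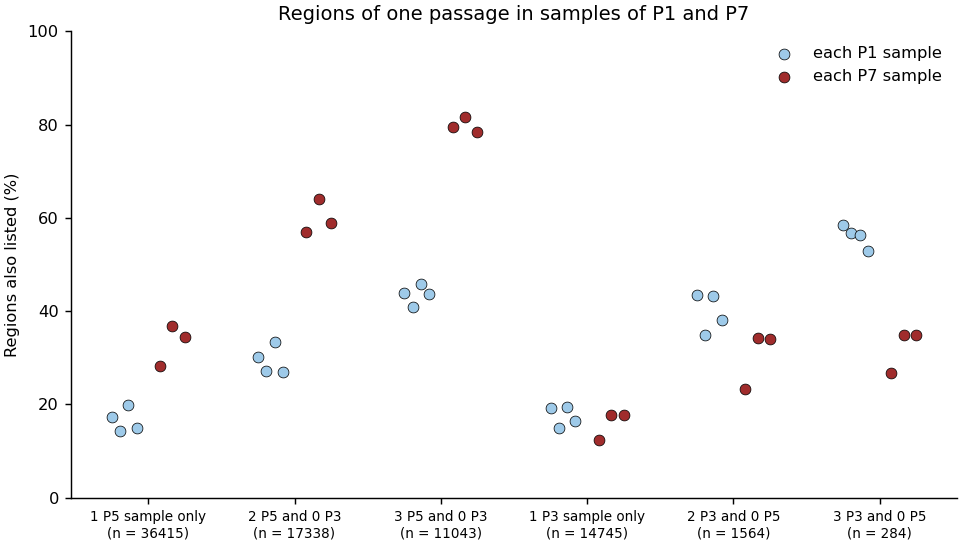
Percent of the regions found only in P5 samples or only in P3 samples (x, with their number) that were also listed in each P1 sample (light blue) and each P7 sample (dark red). Regions of 3 P5 samples were listed in 78.3% to 81.6% in P7 samples, above the P1 samples, and regions of 3 P3 samples were listed more often in P1 samples than in P7 samples.

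Width was compared over the 105900 shared regions. Their median width was 517, 611 and 544 bases in the P3 samples and 555, 602 and 523 in the P5 samples, which overlap (exact permutation p = 0.9). P3 replicate 2 was the widest of all 6. The median log2 ratio of a region's mean width, P5 over P3, was 0.0074, and it was 0.0472 when P3 replicate 2 was left out. It fell below 0 without P3 replicate 1, at −0.0106, and without P5 replicate 2, at −0.0314.

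The median width ratios of regions near start sites and of distal regions had opposite signs. The median log2 width ratio was −0.088 over 15554 promoter regions and 0.031 over 90346 distal regions. Regions wider in every P5 than in every P3 sample numbered 12619, which is 11.9% of shared regions, and those narrower in every P5 sample 8609, which is 8.13%. Of promoter regions 566 were wider and 2592 narrower, whereas of distal regions 12053 were wider and 6017 narrower. The median width of promoter regions was 1019, 1108 and 1058 bases at P3 and 941, 1029 and 907 at P5, values that overlap between the passages. That of distal regions was 474, 560 and 499 bases at P3 and 521, 563 and 489 at P5, which overlap too.

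Strength was compared as a rank, because a rank does not depend on how strong the signal of a sample was as a whole. Within each sample the shared regions were ranked by the −log10 p of their strongest summit, the ranks were turned into normal scores, and limma was fitted to all 105900 regions. At a Benjamini-Hochberg adjusted p under 0.05, 2888 regions ranked higher at P5 (2.73%) and 2023 lower (1.91%), while 23201 had an unadjusted p under 0.05. These calls depended on limma's trend of the variance with the mean: without it no region passed, in either direction, and 20411 had an unadjusted p under 0.05. Leaving out P5 replicate 2 left 285 higher and 183 lower regions. The ranks of all 3 P5 samples lay above all P3 ranks for 13799 regions and below for 14227.

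Regions of higher and of lower rank lay in different parts of the genome. Of the higher ones 2.77% were promoter regions and their median distance to a TSS was 67.6 kb. Of the lower ones 30.6% were promoter regions and the median distance was 15.5 kb. Over all shared regions the values were 14.7% and 29.9 kb. The promoter share of the lower-rank regions depended on the measure ranked: with fold enrichment in place of the −log10 p, 656 regions ranked lower and 11.6% of them were promoter regions, below the share of all shared regions, while the higher-rank regions had 1.60%. Among the 15554 shared promoter regions 80 ranked higher and 619 lower, and 4502 had a difference above 0, with a median difference of −0.14 in normal scores.

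The strongest differences showed this range. The region with the largest rise, on the X (chrX:103563293-103564191), lies in an annotated exon within the span of the noncoding gene Ftx. The annotated spans of Erdr1 and G530011O06Rik also include it. Its percentiles among shared regions were 0.985, 0.110 and 10.3 at P3 and 49.6, 47.0 and 68.4 at P5. An intron of Mmp3, the gene of stromelysin 1, a matrix protease, held the region chr9:7453152-7453834, whose percentile was 8.48, 1.15 and 2.64 at P3 and 58.4, 52.3 and 62.0 at P5. All P5 values lay far above the P3 values. The difference was 2.05 ± 0.32 normal scores (SE; limma adjusted p = 0.00187). In an intron of 2900026A02Rik, the region chr5:113142263-113142888 went from 1.43, 0.679 and 0.490 to 23.4, 26.1 and 41.5, a difference of 1.89 ± 0.38 (limma adjusted p = 0.00938).

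The most lowered region, chr2:73012639-73013018, lies 32.4 kb upstream of Sp3, which encodes a zinc finger factor of GC-rich promoters. Its percentiles were 94.9, 68.9 and 83.5 at P3 and 3.54, 3.03 and 10.6 at P5, a difference of −2.68 ± 0.27 (limma adjusted p = 4.7e-05). It remained listed in every sample of every passage, as did the region in an exon of Sympk (chr7:19035402-19036173), with 49.3, 44.2 and 29.7 at P3 and 0.456, 0.620 and 0.816 at P5.

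Other strongly lowered regions were highest in P3 replicate 2. The region in an intron of Myo3a (chr2:22587192-22587836) had percentiles of 19.9, 80.6 and 44.7 at P3 and 0.633, 0.0890 and 5.599 at P5, and 130 of the 201 bases at its summit lie in stretches identical to the mitochondrial genome. In the whole catalogue 34 regions carried such a stretch of at least 31 bases. Of these 12 were lost and none was gained, and all 4 that were shared ranked lower, with median percentiles of 26.7, 81.2 and 44.6 at P3 and 0.630, 0.750 and 6.18 at P5. Reads of mitochondrial DNA and of these nuclear copies cannot be told apart in such stretches.

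The ranks were followed through P1 and P7 in the regions listed in all 13 samples. In the order P1, P3, P5, P7, the median percentile of the 2722 higher-rank regions was 58.1 ± 1.49, 43.4 ± 0.70, 72.3 ± 1.66 and 71.3 ± 1.80 (SD over 4, 3, 3 and 3 samples). P3 was thus the lowest of the 4 passages, below P1. The 1923 lower-rank regions had 67.1, 74.5, 49.3 and 53.5, with P3 the highest. The P3 and P5 values chose these regions and are only a description. Between P1 and P7, which did not, a region's median rank over the samples of a passage was compared. It was higher at P7 for 71.6% of the higher-rank regions, 24.7% of the lower-rank regions and 48.2% of all regions listed in the 13 samples. Promoter regions as a group had median percentiles of 76.4, 75.9, 71.0 and 66.3 through the passages, and distal regions 45.4, 45.6, 46.7 and 47.5.

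**Figure D4:**
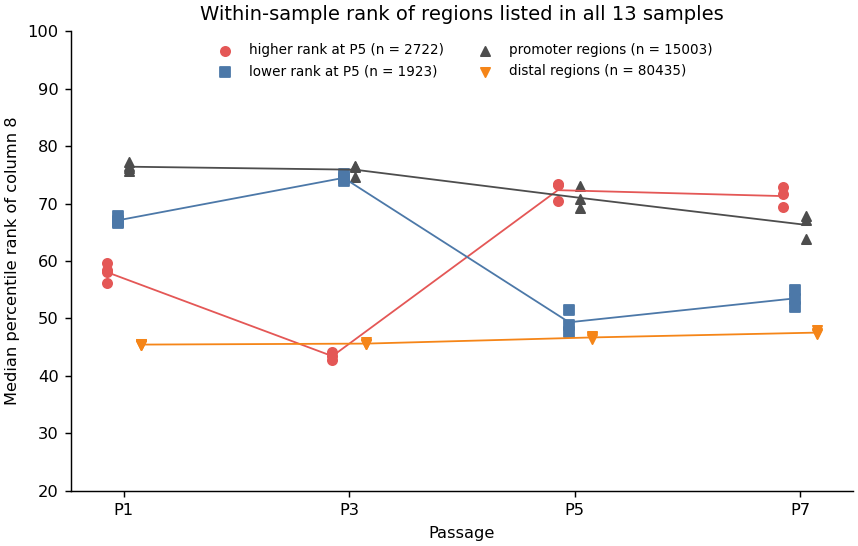
Median percentile rank of column 8, the −log10 p, in each sample (points) and its mean (lines) by passage, for regions listed in all 13 samples: those of higher rank at P5 (red), of lower rank (blue), promoter regions (grey) and distal regions (orange). The higher-rank regions were lowest at P3, at 43.4, and stayed near 71.3 at P7.

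E-boxes were more frequent in gained regions than in lost, shared or all catalogue regions. In the 201 bases at the summit, CAGATG or CATATG, on either strand, occurred in 29.1% of gained regions, 31.7% of those gained in 3 of 3 P5 samples, 19.8% of lost, 23.6% of shared and 24.9% of all catalogue regions. Per sample, 23.1%, 23.5% and 23.2% of listed regions held a match at P3 and 25.1%, 24.99% and 24.6% at P5, with no overlap. The exact permutation test gave p = 0.1, the smallest possible, and 0.156 after Benjamini-Hochberg adjustment over 14 motif families. The passages did not overlap for AP-1, CRE, RUNX, E2F, homeobox, ETS, SP/KLF and C/EBP either (exact permutation p = 0.1 for each), so this separation was not particular to E-boxes.

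The same motif followed the rank. It occurred in 41.8% of regions of higher rank and 16.8% of those of lower rank. Among distal shared regions split into 10 equal groups by rank difference, the share went from 20.3% in the group that ranked lowest at P5 to 34.2% in the group that ranked highest. Leaving out each sample in turn gave 41.4% to 54.4% in higher-rank and 13.8% to 18.7% in lower-rank regions, and ranks of fold enrichment gave 38.8% and 21.2%. Distal regions with a GC content of 40% to 45% had a match in 45.03% of higher-rank, 27.1% of shared and 23.3% of lower-rank regions, and the same order was seen in each of the other 4 bands of GC content.

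Each form was more frequent in gained regions than in lost ones or in the catalogue. CAGATG was in 24.7% of gained, 16.5% of lost and 21.2% of catalogue regions, and CATATG in 5.93%, 4.06% and 4.71%. In shared regions the shares were 20.5% and 3.98%, so that lost regions lay below shared ones for CAGATG and not for CATATG. A pair of other E-boxes was added after these values had been seen. CAGCTG was in 17.0% of gained, 10.98% of lost and 14.9% of catalogue regions, but CACGTG, the form bound by MYC and USF factors, was in 2.78% of gained and 3.52% of lost regions against 3.47% of the catalogue.

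AP-1 matches were not more frequent in gained regions. TGACTCA occurred in 18.6% of gained, 19.0% of lost, 26.6% of shared and 22.1% of catalogue regions. The listed regions with a match were 24.5%, 24.01% and 24.9% at P3 and 23.9%, 23.1% and 22.5% at P5, so that every P5 sample lay below every P3 sample (exact permutation p = 0.1). In distal regions 25.8% of those of higher rank, 37.0% of those of lower rank and 29.9% of all shared ones had a match. The picture differed only for the strongest regions. When 20000 regions per sample were used, 34.4% of gained, 25.8% of lost and 32.5% of shared regions held TGACTCA. At this length promoter regions made up 4.27% of gained, 38.6% of lost and 36.0% of shared regions, and distal regions alone were not compared.

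TEAD matches were in 21.0% of gained, 16.5% of lost and 20.6% of catalogue regions, and RUNX matches in 10.6%, 8.93% and 9.72%. C/EBP sites, searched as TTGCGCAA or TTGCATCA, were rare but showed a wider ratio, with 1.96% of gained, 0.758% of lost and 1.41% of catalogue regions. Motifs of promoters were scarce in gained regions: GGGCGG (SP/KLF) was in 3.19% of gained and 7.74% of catalogue regions, CCGGAAG (ETS) in 0.708% and 1.70%, and any of the E2F forms (TTCCCGC and, with other middle letters, TTGCCGC, then TTCGCGC and likewise TTGGCGC) in 1.12% and 2.16%. In lower-rank regions, where promoters were frequent, GGGCGG was in 24.4% and E2F forms in 5.39%, but with ranks of fold enrichment these shares were 12.5% and 2.13%, against 12.4% and 3.16% of shared regions. The CTCF motif was in 2.04% of higher-rank and 1.19% of lower-rank regions against 3.81% of shared regions.

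**Figure D5:**
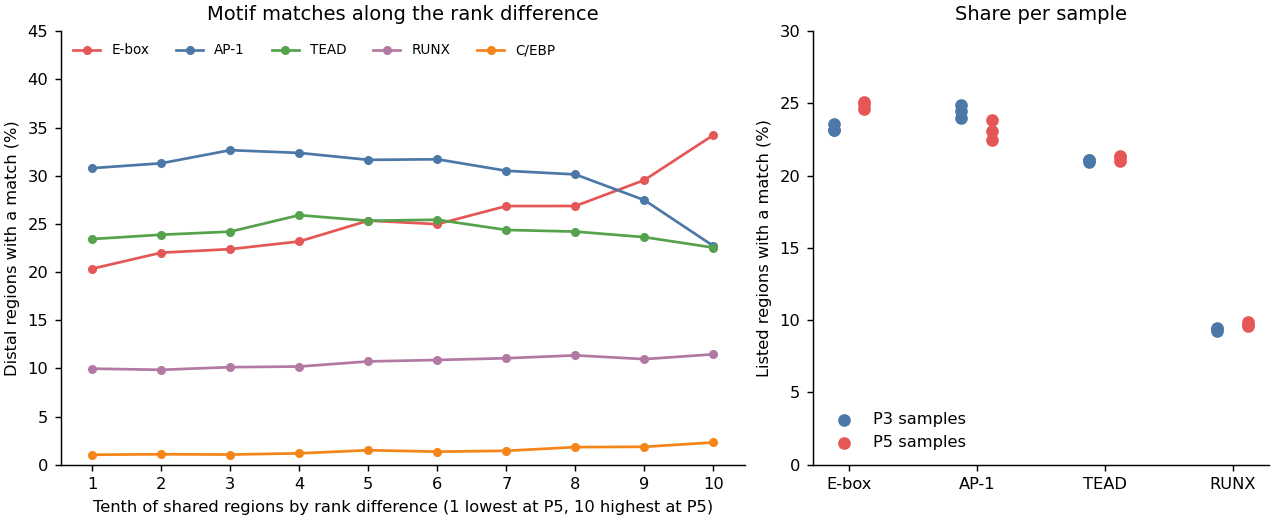
Left, percent of distal shared regions with a motif match in the 201 bases at the summit, in 10 groups of the rank difference from lowest to highest at P5; right, percent of all listed regions with a match in each P3 (blue) and P5 (red) sample. The E-box line climbs from 20.3% to 34.2%, and the AP-1 line ends lower than it starts. The P3 and P5 samples do not overlap for E-box, AP-1 and RUNX, and they overlap for TEAD.

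The factors that read these sites were looked up in the RNA-seq counts after the motif shares had been seen. RNA of Twist1 and Twist2, helix-loop-helix factors of mesenchymal cells, had log2 fold changes of 0.16 (edgeR adjusted p = 0.395) and 0.22 (edgeR adjusted p = 0.114), and their ubiquitous partner genes Tcf3 and Tcf4 had 0.08 and −0.21, none past 0.05. Tcf12 had −0.31 (edgeR adjusted p = 0.0187). Cebpd, a C/EBP factor, went from 43.8 ± 7.63 to 72.1 ± 8.11 CPM (counts scaled to library size; SD, n = 4), a log2 fold change of 0.72 (edgeR adjusted p = 0.00777), below the 1 used as the threshold of size. Cebpa had 0.61 (edgeR adjusted p = 0.0309) and Cebpb 0.24 (edgeR adjusted p = 0.351).

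Of the gained regions 18187 had the TSS of a protein-coding gene within 100 kb, and they were spread over 8985 genes, with 10 or more at 30 genes. The genes with most were Lpp, a LIM protein of focal adhesions, with 19 gained regions of 118 nearest to it, Celf2, an RNA-binding splicing factor, with 19 of 87, and Schip1 with 19 of 74. Palld, which encodes the actin-binding palladin, had 15, and Foxp1, Arhgap24, Dclk1 and Trp63 had 13 each. Ltbp1, which binds latent TGF-β in the matrix, and the nuclear receptor gene Rora had 12 each. Fcnb had the most lost regions, 5, followed by Zfp988 with 4. A gene with many regions in all can hold many gained ones, and over all regions within 100 kb of a TSS 9.98% were gained.

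Many gained regions at a gene did not go with more of its RNA. In the edgeR fit 13442 genes were tested, of which 113 were higher at P5 (0.841%) and 410 lower (3.05%), at an adjusted p under 0.05 and a change of more than 2-fold. Genes with no gained region nearest had a median log2 fold change of 0.058, those with 1 to 2 had −0.034, those with 3 to 5 had −0.086 and those with 6 or more −0.065, against 0.0056 over all genes. Of the 10 genes with most gained regions, Celf2 had −0.43 (edgeR adjusted p = 0.00197) and Ltbp1 −0.48 (edgeR adjusted p = 0.00975).

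At promoters, 597 genes had a gained region within 1 kb of a TSS, and 273 of them had enough RNA counts to be tested. Of these 10 were higher (3.66%, where 0.841% of all genes were) and 7 lower (2.56%), and 151 of the 273 had a log2 fold change above 0. The median was 0.068.

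The 10 higher genes were Mstn, Pcsk1, Serpinb6c, Sncg, Pde8b, Col11a2, Ptn, Tnxb, Aldoc and Krt20. Only for Mstn and Tnxb was the strongest promoter region itself gained. For Sncg, Pde8b, Ptn and Aldoc it was listed in all 6 samples, and for the others in some samples of both passages. Mean RNA of Mstn, Pcsk1, Serpinb6c, Col11a2, Aldoc and Krt20 was low, from 0.599 CPM (Pcsk1) to 4.55 CPM (Serpinb6c) at P5. Pde8b (chr13:95024105-95250336), a cAMP phosphodiesterase, stood out because 10 of the 41 regions nearest to it were gained. Its RNA was 25.04, 18.2, 24.1 and 25.8 CPM at P3 and 58.7, 54.6, 57.0 and 49.1 at P5, with all P5 libraries above all P3 ones. The log2 fold change was 1.24 ± 0.12 (SE; edgeR adjusted p = 1.24e-06).

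Tnxb, which encodes tenascin-X, a protein of connective tissue, had 53.4, 35.3, 32.5 and 45.2 CPM at P3 and 56.3, 79.2, 67.7 and 156 at P5, a log2 fold change of 1.11 ± 0.24 (edgeR adjusted p = 0.00271) with 1 P5 library, at 156, well above the other 3. Ptn, the growth factor pleiotrophin, had 19.9, 17.7, 14.7 and 11.9 CPM against 28.1, 28.4, 47.0 and 37.9, a log2 fold change of 1.14 ± 0.30 (edgeR adjusted p = 0.00821). Sncg, γ-synuclein, had 9.13, 3.77, 6.25 and 6.14 CPM against 16.2, 15.8, 20.03 and 20.9, a log2 fold change of 1.52 ± 0.23 (edgeR adjusted p = 9.2e-05). In both the libraries of the passages did not overlap.

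The 7 lower genes with a gained promoter region were Ano5, Mb, Lyve1, Igf2, Lilrb4a, Scube3 and Kif2c. For Scube3 and Kif2c the strongest promoter region was listed in all 6 samples, and for Lilrb4a in 1 P3 sample only. Mean RNA of Ano5, Mb and Lyve1 was low already at P3, at 0.427, 1.01 and 0.793 CPM. Igf2, the fetal insulin-like growth factor, had 6.64, 3.98, 3.68 and 6.73 CPM at P3 and 1.42, 0.968, 1.36 and 1.92 at P5, a log2 fold change of −1.88 ± 0.27 (edgeR adjusted p = 6.27e-05), so that its RNA was lower although regions at its promoter entered the P5 lists. Lyve1 and Lilrb4a are known as genes of lymphatic vessels or macrophages and of myeloid cells, and Mb as a muscle gene.

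Lost promoter regions belonged to 220 genes, 153 of them tested, of which 1 was higher, Pamr1 at 1.30, and 4 lower (2.61%), a share close to that of all genes. These were Prom1 at −1.91, Kif5c at −1.30, Cdc25c, a phosphatase that starts mitosis, at −1.27, and Cenpp, a centromere protein, at −1.03, all as log2 fold changes. The lost region of Cdc25c was not its strongest promoter region, whose percentile among shared regions was 99.9, 99.9 and 99.8 at P3 and 99.8, 99.8 and 99.9 at P5.

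Of 754 genes with a promoter region of lower rank, 660 were tested. RNA of 2 was higher and of 17 lower (2.58%, against 3.05% of all genes tested and 2.38% of those with a promoter region in all 6 samples). The difference between these shares was not tested. Mki67, the proliferation marker Ki-67, had 239, 241, 330 and 318 CPM at P3 and 118, 100, 63.8 and 54.3 at P5, a log2 fold change of −1.75 ± 0.18 (edgeR adjusted p = 3.46e-06). Its promoter percentiles were 94.5, 72.8 and 88.8 at P3 and 68.1, 62.6 and 74.8 at P5, which overlap (limma adjusted p = 0.0371). Ncapg2, a condensin subunit, had promoter percentiles of 98.3, 98.3 and 97.7 and then 83.5, 79.8 and 89.7 (limma adjusted p = 0.000226), and its RNA had a log2 fold change of −1.63 ± 0.13. Polq, a DNA polymerase of end joining, Cep55, needed in cell division, and Hells, a chromatin remodeller, had −1.74, −1.62 and −1.51, and Slfn9 −1.77. They were named because their log2 fold changes were among the 10 largest of the 17.

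Gene lists of known roles showed few calls at promoters. Of 17 E2F and replication licensing genes, none had a promoter of higher rank, and Mcm7, a subunit of the replicative helicase, and Ccne1, cyclin E1, ranked lower. The promoter of Ccne1 had percentiles of 97.7, 85.2 and 93.2 at P3 and 74.0, 71.7 and 80.0 at P5 (−0.82 ± 0.17 normal scores, limma adjusted p = 0.0096), and that of Mcm7 95.8, 96.7 and 95.1 against 86.9, 88.5 and 89.7 (−0.55 ± 0.12, limma adjusted p = 0.0116). RNA was lower past 2-fold for 7 of the 17 genes, where 3.05% of all tested genes were. Over all shared promoter regions, 619 of 15554 ranked lower. The median rank difference of the list, −0.125, was close to −0.14 for all shared promoters.

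Among 12 CDK inhibitors and other senescence genes, Cdkn2c, the p18 inhibitor, had a promoter of lower rank, with percentiles of 80.6, 79.9 and 85.8 at P3 and 61.3, 62.8 and 70.1 at P5 (limma adjusted p = 0.0275). Cdkn2a was the single gene of the list with RNA up past 2-fold (log2 fold change 2.24, edgeR adjusted p = 2.22e-06). Its promoter region had percentiles of 86.5, 83.6 and 90.7 at P3 and 80.4, 79.6 and 89.3 at P5, which overlap (limma adjusted p = 0.523). Cdkn1a and Cdkn2c each had a gained region within 1 kb of a TSS, beside a promoter region listed in all 6 samples.

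No promoter of the lists of AP-1 and ATF subunits, TEAD factors and targets, secreted inflammatory factors, matrix genes, contractile genes or mesenchymal transcription factors was called in either direction when each gene was represented by its strongest promoter region, though a weaker promoter region of Col1a1, a matrix gene, ranked lower. Differences were above 0 for 1 of 11 AP-1 and ATF promoters and for none of 12 inflammatory promoters, where 4502 of 15554 shared promoters had one. Gained regions made up 5.26% of the regions nearest to AP-1 and ATF genes, 9.82% for TEAD factors and targets, 13.4% for secreted inflammatory factors, 10.4% for matrix genes, 10.3% for contractile and TGF-β genes and 10.97% for mesenchymal transcription factors, with 9.98% as the value for all. Col1a2 and Col3a1, of fibrillar collagens, each had a lost region within 1 kb of a TSS, as did Tgfb1 in the contractile and TGF-β list, and Ccl8, a chemokine gene, a gained one, all beside a promoter region that was listed in all 6 samples. None of the RNAs of these 6 lists passed both thresholds. At an edgeR adjusted p under 0.05 alone, RNA was higher for 2 AP-1 and ATF, 2 inflammatory, 4 matrix and 1 mesenchymal factor genes. It was lower for 1 gene of the TEAD list, 4 contractile and TGF-β genes and 3 mesenchymal factor genes. Batf, an AP-1 subunit, had a log2 fold change of −1.16 (edgeR adjusted p = 0.157) and Cxcl5, a chemokine gene, of 1.00 (edgeR adjusted p = 0.0907).

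Markers of other cell types were checked because a culture can lose them with passage. RNA of 5 of 9 macrophage markers, 4 of 5 endothelial markers and 4 of 4 tested skeletal muscle markers was lower at P5, and of no keratinocyte marker, where 3.05% of all tested genes were lower. Summed levels per library were 42.8 to 60.02 CPM at P3 and 19.3 to 29.8 at P5 for macrophage markers, 35.3 to 39.8 and 11.1 to 14.3 for endothelial markers, and 5.93 to 8.78 and 1.39 to 2.42 for muscle markers. The 10 fibroblast markers summed to 32221 to 37787 CPM at P3 and 33683 to 42458 at P5, and none passed the 2-fold threshold. In bulk samples fewer cells of a type and less RNA or fewer open sites per cell cannot be told apart, and what part these cells had in the lost regions, or in the lower RNA of Lyve1, Lilrb4a and Mb, was not tested.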

How the data were processed

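ATAC-seq peak lists of P3 and P5 (3 samples each; P1 and P7 only to follow regions) and RNA-seq counts were used. The authors trimmed ATAC-seq reads, aligned them to mm10 with Bowtie2 (2.3.5.1 in the submitters' notes), removed duplicates and reads of mapping quality 10 or less, and called peaks in each sample with MACS2, centring cuts by shifting reads. The deposited lists give per summit a fold enrichment (a ratio over local background), a −log10 p and a −log10 q. All listed rows had a −log10 p of at least 2. No depth was given, so no counting interval could be set. The deposited RNA counts are whole reads per gene from HISAT2 2.2.1 and HTSeq 0.12.4 after Trimmomatic 0.39, unstranded, so overlapping and antisense genes are not separated. Totals were 13430229 to 15725823 counts per library.

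Rows with equal start and end were joined and overlapping regions merged (RefSeq GRCm38 annotation, promoter within 1 kb of a TSS). Exact permutation tests (two-sided) compared samples, limma 3.58.1 compared normal scores of ranks, with a trend of the variance, and edgeR 4.0.16 quasi-likelihood compared counts over all 16 RNA libraries of the 4 passages. Scripts were tested on simulated data. Of 24984 gene names 24847 were matched to the annotation. Named regions are the 8 strongest gained and 5 strongest lost in 3 of 3 samples by their lowest percentile, and the 5 called regions with the largest rank difference each way. Named genes are the 10 with most gained and 5 with most lost regions, genes of the lists, and RNA calls with a gained, lost or lower-rank promoter region. All such calls were taken up to 15, otherwise the 10 largest with an average log2 CPM of at least 1. Several of these regions and genes are counted but not reported here. Members, lists and rules were chosen with earlier results of these data known. Motif letters were searched on both strands within 100 bases of the summit. Knockdown and overexpression samples were not used here. Alternatives were other p and q limits, equal list lengths, other overlaps, other windows, other rank measures, DESeq2 1.42.0, other filters and leaving out each sample.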

Additional observations from a re-analysis of the deposited data

Results flagged for a closer look

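Among the RNA levels of the named genes and markers, 128 groups of 4 libraries were examined for 1 library far from the other 3, with Dixon's ratio at the 95% level, and 10 had one. Chance alone gives about 1 in 20 such groups. Ltbp1 had 101 CPM in 1 P5 library, against 69.3 to 74.4 in the others. Serpinb6c had 2.63 CPM in 1 P3 library (others 0.892 to 1.16) and Scube3 6.14 (others 2.33 to 2.96). Col11a2 had 0.711 CPM in 1 P5 library (others 2.83 to 3.11). Slfn9 had 33.4 CPM in 1 P3 library (others 26.3 to 26.8).

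The remaining ones were markers near 0. Ptprc, the pan-leukocyte gene CD45, had 0.322 CPM in 1 P3 library (others 0.512 to 0.549) and 0.397 in 1 P5 library (others 0 to 0.0646). Itgam had 0.878 CPM in 1 P3 library (others 1.51 to 1.58). Myod1 and Myog, factors of the muscle lineage, had 0.0646 CPM in 1 P5 library each and 0 in the others.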

How the results depend on the processing

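The ratios of regions (1.26 to 1.35) and of covered bases (1.11 to 1.23) stayed above 1 when any 1 sample was left out. Gained regions numbered 8106 at equal list length and 11043 when 3 of 3 samples were required, and lost regions 7041 and 284, with 949 lost at a −log10 p of at least 5. Leaving out 1 sample gave 13425 to 36883 gained (15970 without P5 replicate 1, 13425 without replicate 2) and 678 to 3358 lost (796, 1077 and 678 without P3 replicates 1, 2 and 3; 2912 and 3358 without P5 replicates 1 and 2). The promoter share of gained regions was 2.29%, 1.63% and 1.64% at −log10 p of 5, equal length and 3 of 3 samples (1.75% to 2.40% leaving out samples), and that of lost regions 13.3% at −log10 p of 5 and 13.7% in 3 of 3 (9.89% to 14.1%). The AP-1 share of gained regions was 14.9% within 50 bases, 21.4% over whole regions and 19.4% at equal length (16.6% to 19.4%), and of lost regions 13.9%, 21.9% and 21.8% (17.7% to 21.7%). Gained regions listed in at least 2 P7 samples went from 70.2% to 89.1% at equal length (71.9% to 79.1%), and in at least 3 P1 samples from 26.9% to 42.9% (30.1% to 33.3%). The median width ratio turned to −0.0073 at −log10 p of 5 and to −0.0106 and −0.0314 without P3 replicate 1 and P5 replicate 2 (−0.0314 to 0.0578). Higher and lower ranks numbered 2617 and 656 by fold enrichment, 15104 and 436 as percentiles among all regions, 1856 and 1487 in regions of at least 3 samples, and 285 to 3349 and 183 to 1864 leaving out samples (1858 and 681 without P3 replicate 1, 1525 and 573 without P3 replicate 3, 946 and 791 without P5 replicate 1, 1117 and 1050 without P5 replicate 3). RNA calls were 55 higher and 241 lower with at least 10 counts in every library (91 to 151 and 360 to 436 leaving out libraries). The median RNA change at gained promoters was 0.0 with DESeq2 and without a filter (0.0253 to 0.0916), and at lost promoters −0.009 without a filter (−0.0091 to 0.0303). The causes of these shifts were not tested. Among settings that left out no sample, 43 values stayed within the limits used, 35 did not and 1 changed direction. The limit was 1.5 times for a count and the 95% binomial interval of the main value for promoter and motif shares. For shares listed in P1 or P7 samples and for RNA medians it was 1 SD, and ratios were judged by direction only.

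Replicate numbers were not treated as pairs. The same-numbered ATAC-seq samples had correlations of 0.0044, 0.0609 and −0.0287 of their deviations, and the RNA libraries −0.157, 0.235, 0.113 and 0.125. From 3 or 4 samples per passage it cannot be told whether same-numbered samples came from the same culture. With the number as a replicate block, 3751 regions ranked higher and 2745 lower, RNA of 115 genes was higher and of 425 lower, and the medians at gained and lost promoters were 0.0681 and 0.0124. Without counts behind the peaks, depth limits every statement on regions absent from a list.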
